A study of Mus musculus with 12 samples.

Results

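Glutathione, glucuronosyl and sulfotransferases are the enzymes that attach a water-soluble group to drugs, hormones, bile pigments and reactive by-products. The genes described here are the 64 of the 36144 symbols in the deposited table that belong to the cytosolic glutathione transferases (22 Gst genes), the UDP-glycosyltransferases of families 1 to 3 (21 Ugt genes) and the cytosolic sulfotransferases (21 Sult genes). They were chosen by symbol alone: Gst followed by a class letter a, k, m, o, p, t or z and a number, Ugt followed by a family digit from 1 to 3, a letter, a number and sometimes a further letter, and Sult followed by a family digit from 1 to 6, a letter and a number. The symbol rule itself uses no measured value, although it was set with earlier results of these data known.

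Their messages were measured in cultured primary hepatocytes of a wild-type C57/Bl6J mouse by poly-A RNA sequencing, with 3 libraries in each of 4 groups. All cells spent 16 h overnight without serum. FDMn cells had 6 µM manganese chloride during those 16 h and then 10 µM forskolin and 1 µM dexamethasone for 5 h. FDI cells had insulin for 1 h before the same forskolin and dexamethasone, at 100 nM by the design text, although the protocol also names 1 nM. FD cells had forskolin and dexamethasone alone, and Mock cells had none of these agents. Forskolin raises cAMP, as glucagon does, and dexamethasone is a synthetic glucocorticoid, so the pair imitates hormones of fasting. Manganese and insulin were never given without forskolin and dexamethasone, and their exposures differ in length, so agent and exposure cannot be told apart. The labels speak of a single mouse, and nothing in them shows that the 3 libraries of a group came from separate cultures. The spread behind each p-value is that between these libraries, which may be technical.

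The liver makes hydrophobic compounds excretable in a few standard ways. Glutathione transferases join them to glutathione, a tripeptide held at high concentration in hepatocytes. UDP-glucuronosyltransferases, which sit in the endoplasmic reticulum, join them to glucuronic acid taken from UDP-glucuronic acid. Sulfotransferases join them to sulfate taken from the donor PAPS. Many of these genes arose by local duplication and lie in clusters of near-identical neighbours, and many respond to the nuclear receptors CAR and PXR, to the aryl hydrocarbon receptor and to NRF2.

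Values are TPM, a gene's share of a library's transcripts scaled to 1000000 and corrected for length, so levels of different genes can be set side by side. The number of reads is not recorded in TPM, and the depth of each library is unknown. Changes were tested with limma on log2(TPM + 1), a scale that shrinks the fold change of low genes, and p-values were adjusted by the Benjamini-Hochberg method over the 11544 genes with at least 1 TPM in at least 3 of the 12 libraries. A gene is said to rise or fall where its adjusted p is under 0.05. Of the 64 members, 45 passed the filter on low values (20 Gst, 18 Ugt and 7 Sult genes). The other 19 stayed below it, and 8 of these were listed at 0 in every library: Gstt4, Sult2a3, Sult2a4, Sult2a5, Sult2a6, Sult3a1, Sult3a2 and Sult6b2.

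The libraries had the hepatocyte label's markers in every group. The summed TPM of 7 hepatocyte markers was 31886 to 32665 in FDMn, 27031 to 27689 in FDI, 27820 to 37694 in FD and 28829 to 29744 in Mock libraries. Most of that sum was albumin, so it hides shifts of the other markers. Of the 7, 4 rose and 0 fell in FD against Mock, and 1 rose and 2 fell in FDMn against FD. In FDI against FD 0 rose and 2 fell, and in FDMn against FDI 2 were higher and 0 lower. The marker list itself thus differed between treatments and is not a measure of hepatocyte content. Hnf4a averaged 184 TPM in FDMn, 178 TPM in FDI, 205 TPM in FD and 52.1 TPM in Mock libraries. Albumin (Alb) was at 32589 and 30581 TPM in FD replicates 1 and 2, against 22624 TPM in FD replicate 3, so the FD libraries were not alike. Results that rest on FD were therefore also computed with FD replicate 3 as the only FD library, which is assumed to vary like the other groups. The summed TPM of 6 cholangiocyte markers, 3 of which passed the filter and none of which was at 0 throughout, was 1412 to 1606 in FDMn, 762 to 809 in FDI, 732 to 803 in FD and 1082 to 1126 in Mock libraries. Most of that sum was Spp1, at 1418 TPM on average in FDMn and 632 TPM in FDI libraries. The other tested markers of that list ran the other way between these groups: Cldn4 averaged 51.7 TPM in FDMn and 105 TPM in FDI libraries, and Sox9 averaged 25.2 TPM in FDMn and 40.6 TPM in FDI libraries. Markers of Kupffer cells (3.46 to 7.17 TPM in sum over all libraries), stellate cells (6.52 to 12 TPM), endothelial cells (19.9 to 32.7 TPM) and lymphocytes (at most 0.409 TPM, with Nkg7 at 0 throughout) were low. The part of these marker differences in the results was not tested. In bulk RNA, fewer cells of a type and less RNA per cell cannot be told apart.

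In FDMn against FD, 4 of the 7 mu-class glutathione transferases (Gstm1 to Gstm4), the bilirubin enzyme Ugt1a1 and the Ugt2b genes Ugt2b5, Ugt2b35 and Ugt2b36 were among the 12 that fell. The 5 that rose were Gstp3, Ugt2a3, Ugt2b38, Ugt3a1 and Sult1e1, the last of which passed the low-value filter only through its FDMn libraries. Most alternatives ended the calls of Ugt2a3 (14 of 22) and Sult1e1 (14 of 21), and 7 of 22 ended that of Gstp3. Insulin lowered 4 members and raised none by the test. Forskolin and dexamethasone raised 9 members, led by the sulfotransferases Sult1a1 and Sult1d1. Within a subfamily, some genes fell while others rose or did not pass.

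In counts, 5 of the 45 members tested rose and 12 fell in FDMn against FD, where 7.22% of all genes tested were called higher and 7.90% lower. In FDMn against FDI, the direct comparison of both agents, 6 members were higher and 13 lower, against 5.68% and 11.9% of all genes. In FDI against FD, limma called 0 members higher and 4 lower, against 10.2% and 4.35% of all genes. At an unadjusted p under 0.05, 3 members were higher and 5 lower in that comparison. In FD against Mock, 9 members rose and 1 fell, where 11.2% of all genes were called higher and 29.9% lower. Single libraries moved the smaller counts. The 5 members higher in FDMn against FD became 2 without FD replicate 2, FD replicate 3 or any 1 of the FDMn replicates, 3 without Mock replicate 3 or FDI replicate 2, and 1 with FD replicate 3 as the only FD library. The count of 0 higher in FDI against FD became 2 without FD replicate 3, and the 1 member lower in FD against Mock became 3 without FD replicate 3 and 0 without Mock replicate 3. The median log2 change of the 45 members was −0.094 in FDMn against FD, −0.098 in FDMn against FDI, −0.052 in FDI against FD and 0.047 in FD against Mock. The medians over all genes tested were 0.0032, −0.041, 0.042 and −0.15 in the same 4 comparisons.

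The medians depend on scaling. Under median-of-ratios scaling the members' median was −0.1 in FDMn against FD, −0.059 in FDMn against FDI, −0.086 in FDI against FD and 0.19 in FD against Mock. On deposited TPM all genes were 0.15 lower on the log2 scale in the median in FD than in Mock, and after median-of-ratios scaling that shift was −0.0041. Median-of-ratios scaling therefore gave 2059 genes higher and 1972 lower in FD, in place of 1296 and 3447, and 17 members higher and 0 lower. The 17 were the 9 called on deposited TPM with Gstk1, Gstm2, Gstm3, Gstt1, Sult5a1, Ugt1a6b, Ugt2b1 and Ugt2b38. For FDI against FD the same scaling gave 878 genes higher and 671 lower, in place of 1172 and 502, while the 4 member calls stayed the same. In FDMn against FDI it gave 791 and 1061, in place of 656 and 1375, with 7 members higher and 10 lower. In FDMn against FD it gave 829 and 943, in place of 834 and 912. There 5 members were higher and 13 lower, with Gsta1 added. Neither this scaling nor quantile normalization turned the direction of any member that was called.

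**Figure D1:**
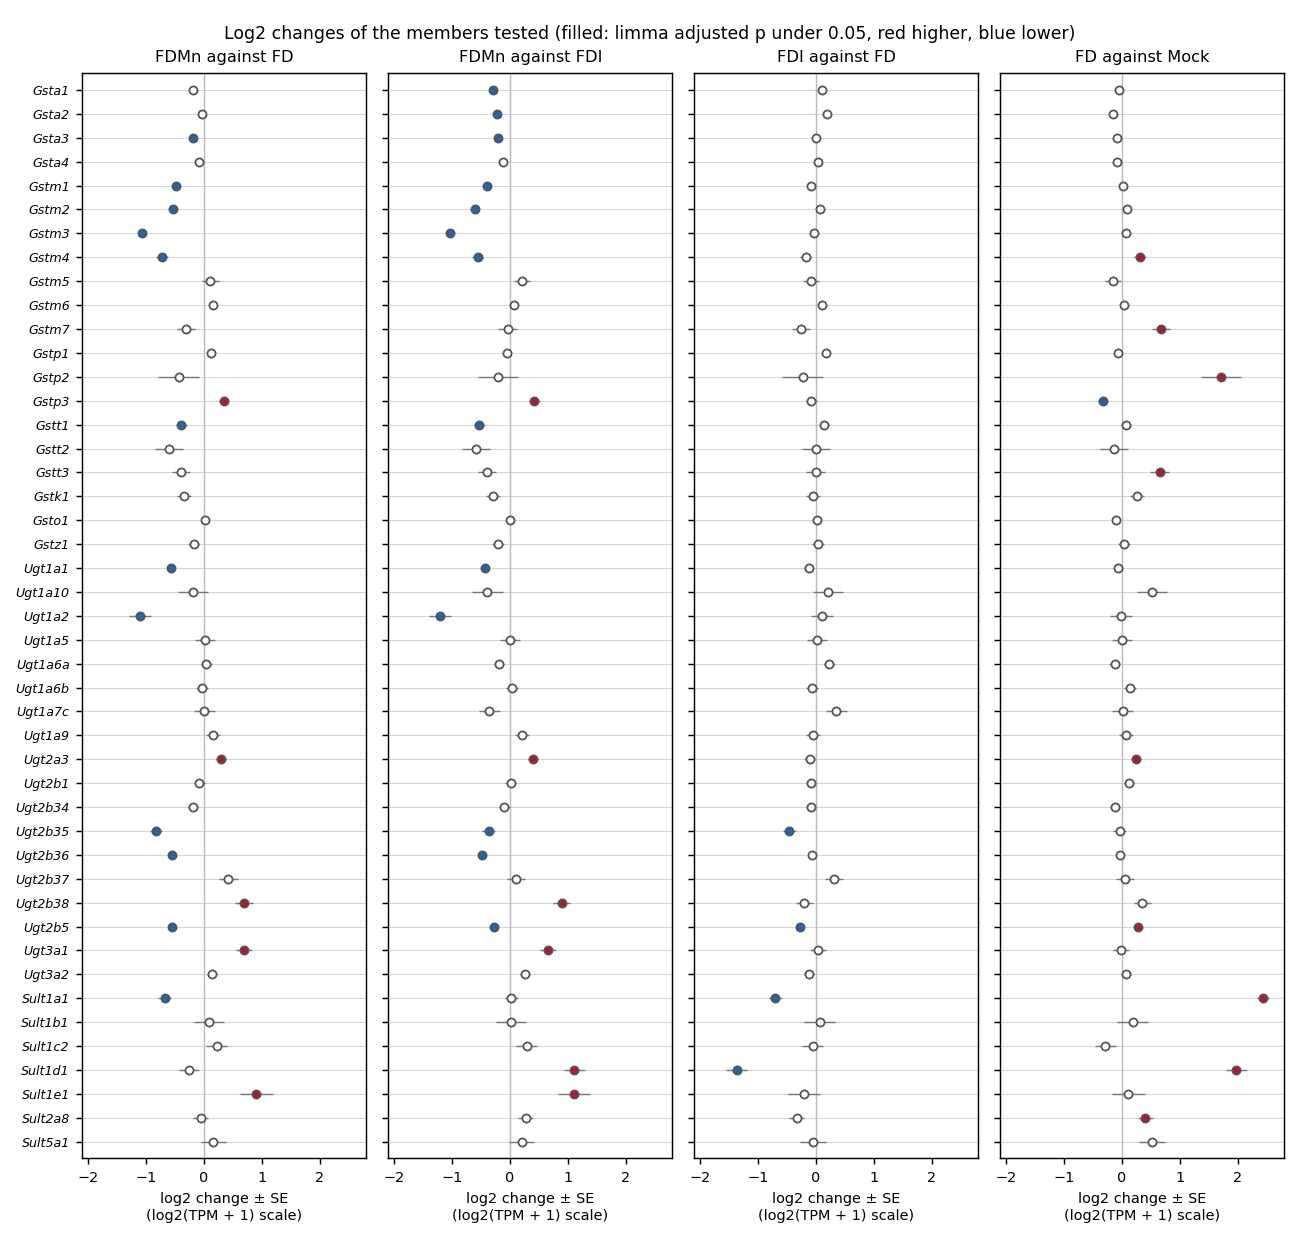
Log2 changes (x axis, log2(TPM + 1) scale) of the 45 members tested, ordered by subfamily, in FDMn against FD, FDMn against FDI, FDI against FD and FD against Mock. Bars are standard errors from limma, red points are members called higher and blue points members called lower; Gstm1 to Gstm4 lie left of 0 in both manganese panels, and Sult1a1 and Sult1d1 lie farthest right in FD against Mock.

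Glutathione transferases made up most of the transcript level. Gstp1, of the pi class, held 41.1% of the summed TPM of all 64 members, Gstm1, of the mu class, 20.3%, and Gsta1, of the alpha class, 10.6%. Together they held 72% of it. By mean TPM over the libraries these genes ranked 39, 67 and 139 among the 36144 symbols. The summed level of the Gst genes was 7079 to 7422 TPM in FDMn, 7762 to 8604 TPM in FDI, 7365 to 8101 TPM in FD and 7776 to 7870 TPM in Mock libraries. The Ugt genes summed to 640 to 677 TPM in FDMn, 737 to 795 TPM in FDI, 778 to 854 TPM in FD and 744 to 836 TPM in Mock libraries. The Sult genes summed to 42.6 ± 4.36 TPM in FDMn, 32.1 ± 1.45 TPM in FDI, 51.9 ± 2.95 TPM in FD and 18.4 ± 1.54 TPM in Mock libraries (SD, n = 3 each). The Gst sums of FDMn overlapped those of FD libraries and lay below those of FDI and Mock libraries, and the Sult sums of the 4 groups did not overlap.

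**Figure D2:**
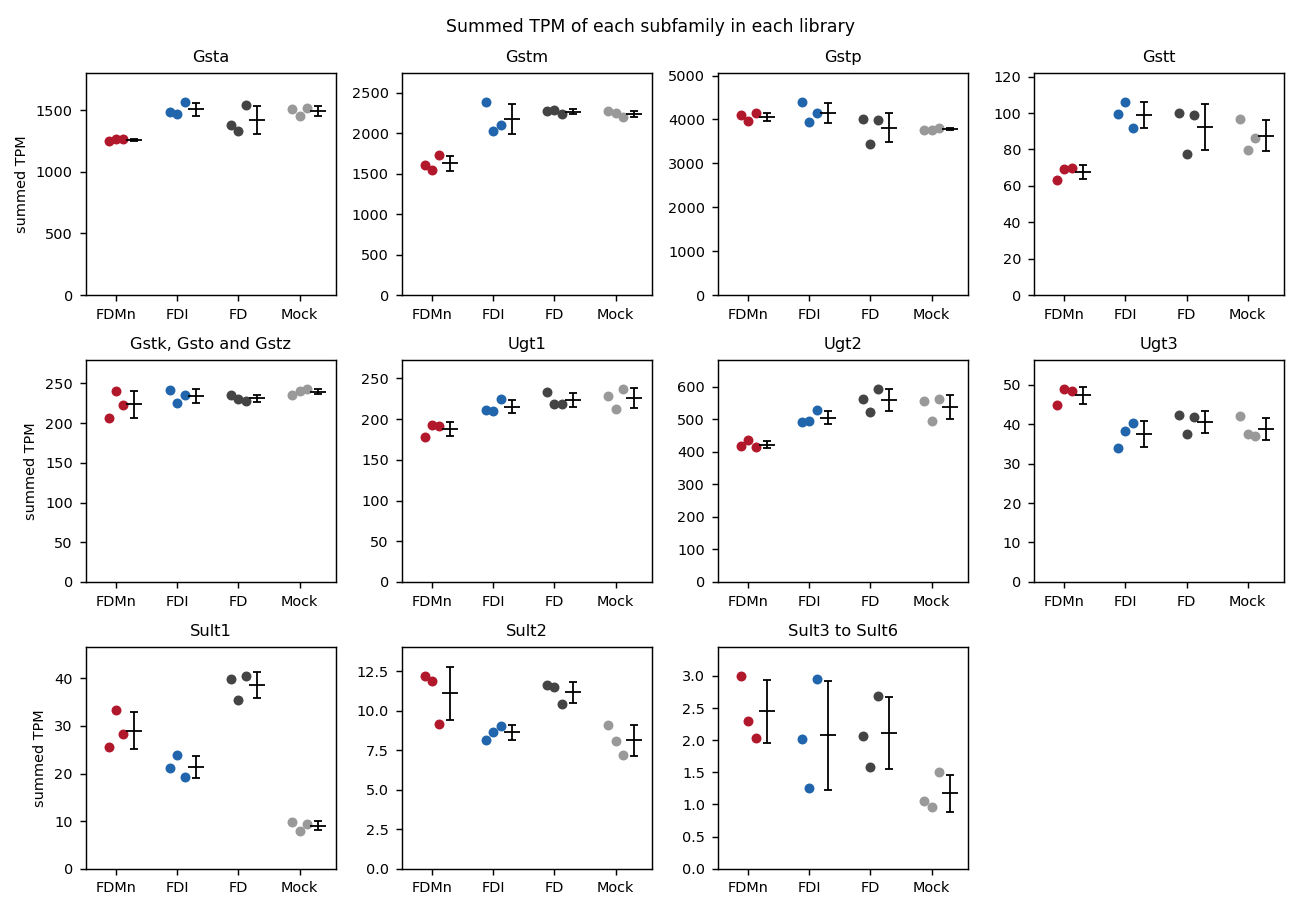
Summed TPM (y axis) of each of the 11 subfamilies in each library, with groups from left to right in the order FDMn, FDI, FD and Mock. Points are libraries and the bar beside them is the mean ± SD (n = 3); the Gstm and Ugt2 sums are lowest in the FDMn libraries, and the Sult1 sum is lowest in the Mock libraries.

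Because kallisto assigns reads by exact sequence, genes that share long stretches with another gene are measured less surely. For each member the share of its 31-base stretches, in protein-coding transcripts of GENCODE M21, that also occur in transcripts of another gene was counted. Of the 45 members tested, 17 shared under 5% and 14 shared at least 50%. Sult1d1, Sult1e1, Sult1b1, Gsta4 and Gsto1 shared none. The stretch length is that of kallisto's default, and the index the authors used is not given in the sources used here.

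**Figure D3:**
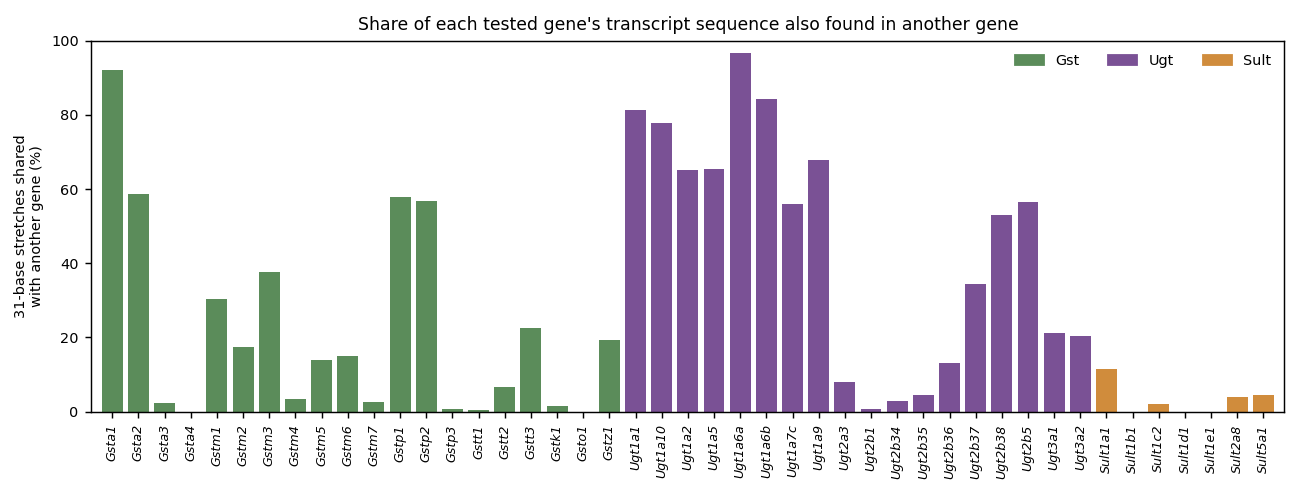
Share of each tested member's 31-base transcript stretches that also occur in another gene (y axis, percent), coloured by family. The Ugt1 genes, Gsta1, Gsta2, Gstp1, Gstp2, Ugt2b5 and Ugt2b38 share more than 50%, while most Sult genes share little.

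With manganese 4 of the 7 mu-class genes fell. The Gstm genes lie in a cluster on chromosome 3 (GRCm38, 107895821 to 108044894) in the order Gstm5, Gstm7, Gstm6, Gstm3, Gstm2, Gstm1 and Gstm4. All 7 were tested, and the 4 that fell in FDMn against FD, Gstm3, Gstm2, Gstm1 and Gstm4, are consecutive at one end of the cluster. Gstm5, Gstm7 and Gstm6, at the other end, did not pass the test in either direction, and Gstm6 averaged 72.5 TPM in FDMn and 64.8 TPM in FD libraries. Gstm5 shares 14% of its sequence stretches, as counted above, with the gene 4933431E20Rik, and without knowledge of strand such overlaps cannot be resolved.

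Gstm1, the most abundant mu-class enzyme gene here, had 1354, 1279 and 1453 TPM in FDMn libraries, 1989, 1667 and 1754 TPM in FDI libraries, 1912, 1933 and 1868 TPM in FD libraries and 1909, 1915 and 1860 TPM in Mock libraries. Every FDMn library lay below every other library. Gstm1 fell, with a log2 change of −0.49 ± 0.06 (SE, adjusted p = 0.00046) in FDMn against FD and −0.40 ± 0.06 (adjusted p = 0.00125) in FDMn against FDI.

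Gstm3 had 37.7, 40.0 and 41.5 TPM in FDMn libraries, 83.0, 84.9 and 79.3 TPM in FDI libraries, 86.5, 84.4 and 81.9 TPM in FD libraries and 86.0, 76.9 and 79.7 TPM in Mock libraries. FDMn stood alone, while FDI, FD and Mock libraries overlapped. In FDMn against FDI the log2 change was −1.04 ± 0.06 (adjusted p = 1.5e-06), and in FDI against FD it was −0.03 ± 0.06 (adjusted p = 0.778).

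Gstm2 averaged 114 ± 6.90 TPM in FDMn and 166 ± 4.51 TPM in FD libraries (SD, n = 3 each). It fell by the test, with a log2 change of −0.54 ± 0.07 (adjusted p = 0.00024). Gstm4 averaged 10.9 ± 0.915 TPM in FDMn and 18.7 ± 1.5 TPM in FD libraries, a log2 change of −0.73 ± 0.10 (adjusted p = 0.00051). Gstm4 shares 3.31% of its stretches with other genes, against 30.4% for Gstm1, 17.4% for Gstm2 and 37.7% for Gstm3. The 4 genes summed to 1440 to 1626 TPM in FDMn, 1940 to 2278 TPM in FDI, 2138 to 2199 TPM in FD and 2109 to 2171 TPM in Mock libraries. In FD against Mock, Gstm4 and Gstm7 rose, with log2 changes of 0.31 ± 0.10 (adjusted p = 0.0279) and 0.67 ± 0.16 (adjusted p = 0.00599). The Gstm4 call ended without Mock replicate 2 (adjusted p = 0.113), without FD replicate 2 (adjusted p = 0.0957) and with FD replicate 3 as the only FD library (adjusted p = 0.171). The Gstm7 call ended only with FD replicate 3 as the only FD library (log2 change 0.35, adjusted p = 0.22).

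Of the 4 alpha-class genes, limma called 0 higher (also 0 at an unadjusted p under 0.05) and only Gsta3 lower in FDMn against FD, and Gsta1, Gsta2 and Gsta3 lower in FDMn against FDI. Gsta1 had 794, 802 and 786 TPM in FDMn libraries, 954, 954 and 1025 TPM in FDI libraries, 890, 837 and 1009 TPM in FD libraries and 951, 923 and 966 TPM in Mock libraries. It was lower in FDMn than in FDI (log2 change −0.30 ± 0.06, adjusted p = 0.00654), and in FDMn against FD it missed the threshold (−0.19 ± 0.06, adjusted p = 0.0554). For Gsta1, FDMn against FD passed without FD replicate 2 (−0.25, adjusted p = 0.0178). It also passed under median-of-ratios scaling, but not under quantile normalization. With FD replicate 3 as the only FD library the log2 change was −0.35. Gsta1 shares 92.2% of its stretches with other genes and 87.8% with Gm3776, a gene that the symbol rule does not take and that was looked up after this overlap was seen. Gm3776 was itself at 952, 1102 and 1046 TPM in FDMn libraries, 1323, 1312 and 1308 TPM in FDI libraries, 1277, 1297 and 1302 TPM in FD libraries and 1367, 1250 and 1325 TPM in Mock libraries. It fell in FDMn against FD (log2 change −0.32 ± 0.05, adjusted p = 0.00201). Gsta1 and Gm3776 together were at 1746 to 1904 TPM in FDMn, 2266 to 2333 TPM in FDI, 2134 to 2311 TPM in FD and 2173 to 2319 TPM in Mock libraries. The FDMn sums lay below all others, and how reads were divided between both genes cannot be told from TPM.

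Gsta3, which in mice detoxifies aflatoxin epoxide, averaged 176 ± 6.39 TPM in FDMn, 202 ± 7.03 TPM in FDI and 202 ± 3.52 TPM in FD libraries, and shares 2.27% of its stretches. It fell by 0.20 on the log2 scale against both, with adjusted p = 0.0187 against FD and 0.016 against FDI. The first call ended without FDMn replicate 1 (adjusted p = 0.076), without FDMn replicate 2 (0.0689) and with FD replicate 3 as the only FD library (0.092). The second ended without FDI replicate 1 (adjusted p = 0.0565), FDMn replicate 1 (0.0637) or FDMn replicate 2 (0.0608), and under median-of-ratios scaling (0.0544) and quantile normalization (0.112). Gsta2 was lower in FDMn than in FDI (log2 change −0.23 ± 0.07, adjusted p = 0.0376), a call that ended in 12 of 22 alternatives, among them each one that left out an FDMn or FDI library or Mock replicate 1 or 3 (adjusted p from 0.0503 to 0.128). Gsta4, which conjugates lipid peroxidation products, was called in no comparison and averaged 143 to 163 TPM over the 4 groups.

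**Figure D4:**
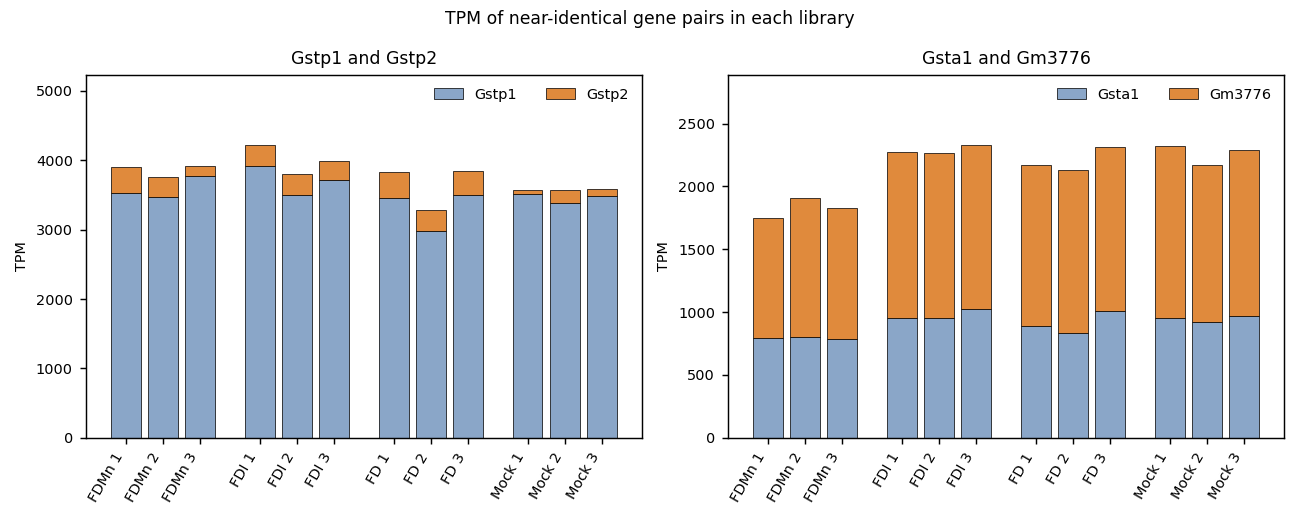
Stacked TPM (y axis) of Gstp1 with Gstp2 and of Gsta1 with Gm3776 in each of the 12 libraries, with groups from left to right in the order FDMn, FDI, FD and Mock. Gstp2 is the smaller share throughout, from 151 to 375 TPM in FDMn, FDI and FD libraries and from 62.2 to 185 TPM in Mock libraries, and the Gsta1 and Gm3776 bars are lowest in FDMn libraries.

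The pi-class genes Gstp1, Gstp2 and Gstp3 are neighbours on chromosome 19 (4035407 to 4059569), all on the minus strand. Gstp1 and Gstp2 have coding sequences of 630 bases that differ at 12 positions, an identity of 98.1%, and Gstp1 shares 57.8% of its 31-base stretches with Gstp2. The first 90 coding bases, taken from GENCODE M21 transcripts across 3 exons, hold 6 of the 12 differences. They are shown 5′ to 3′ with the differing bases in capitals, because reads that cover none of these bases cannot separate both genes there.
Gstp1: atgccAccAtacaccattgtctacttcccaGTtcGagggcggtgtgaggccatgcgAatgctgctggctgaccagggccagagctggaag
Gstp2: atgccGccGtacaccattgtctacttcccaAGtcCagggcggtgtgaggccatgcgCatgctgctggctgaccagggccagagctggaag

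Gstp2 had 373, 284 and 151 TPM in FDMn libraries, 306, 301 and 272 TPM in FDI libraries, 375, 306 and 353 TPM in FD libraries and 62.2, 185 and 98.5 TPM in Mock libraries. It rose in FD against Mock (log2 change 1.71 ± 0.35, adjusted p = 0.00202), and its Mock and FDMn libraries spread widely. Gstp1 had 3459, 2979 and 3498 TPM in FD libraries and 3508, 3380 and 3490 TPM in Mock libraries, which overlap (log2 change −0.07 ± 0.07, adjusted p = 0.451; 0.10 under median-of-ratios scaling). Gstp1 and Gstp2 together were at 3285 to 3851 TPM in FD and 3565 to 3588 TPM in Mock libraries, so the sum of the pair overlapped between these groups. Gstp1 did not pass in FDMn against FD (0.12 ± 0.07, adjusted p = 0.246) or in FDI against FD (0.17 ± 0.07, adjusted p = 0.116).

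Gstp3 shares 0.736% of its stretches with other genes and went its own way. It had 187, 202 and 215 TPM in FDMn libraries, 167, 133 and 153 TPM in FDI libraries, 173, 159 and 144 TPM in FD libraries and 187, 200 and 212 TPM in Mock libraries. It was higher in FDMn than in FDI (log2 change 0.42 ± 0.09, adjusted p = 0.0091) and in FDMn than in FD (0.34 ± 0.09, adjusted p = 0.0274), and it fell in FD against Mock (−0.33 ± 0.09, adjusted p = 0.013). The call against FD ended in 7 of 22 alternatives, with log2 changes of 0.27 to 0.47. These were the fits without FD replicate 2 (adjusted p = 0.061), FD replicate 3 (0.0726), FDMn replicate 2 (0.0766) or FDMn replicate 3 (0.101), with FD replicate 3 as the only FD library (0.052), without the low-value filter (0.0661) and without the variance trend (0.0513). The call against Mock ended without Mock replicate 3 (adjusted p = 0.0532) and under median-of-ratios scaling (log2 change −0.17, adjusted p = 0.205).

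Among the other classes, Gstt1, a theta-class enzyme gene whose product handles small halogenated compounds, had 53.7, 56.8 and 59.4 TPM in FDMn libraries, 82.7, 85.8 and 78.2 TPM in FDI libraries and 78.2, 65.7 and 80.7 TPM in FD libraries. The FDMn libraries lay below all of these. Gstt1 fell by the test, with a log2 change of −0.39 ± 0.09 (adjusted p = 0.00938) against FD and −0.53 ± 0.09 (adjusted p = 0.00125) against FDI. Gstt3 averaged 3.82 ± 0.954 TPM in FD and 2.03 ± 0.212 TPM in Mock libraries and rose (log2 change 0.65 ± 0.16, adjusted p = 0.00627). Gsto1, whose product has thioltransferase activity and which shares no stretch with another gene, averaged 174 to 186 TPM over the 4 groups and was called in no comparison. Gstk1 (13.8 to 18.0 TPM) and Gstz1 (34.6 to 40.2 TPM), the maleylacetoacetate isomerase of tyrosine breakdown, were also called in none on deposited TPM. Gsto2 was at most 0.642 TPM in any library.

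The Ugt1 genes form a single locus on chromosome 1, plus strand, from the start of Ugt1a10 at 88055388 to 88220002. Each has its own first exon, and all 9 share the exons at 88215044 to 88215175, 88215795 to 88215882 and 88216138 to 88216357; a last exon at 88218127 to 88218997 is annotated identically for 6 of them. Every Ugt1 member therefore shares at least 56.1% of its 31-base stretches, and the genes are separated mainly by their first exons. Ugt1a7c also reaches farther at its 3′ end, to 88220002. Of 8 tested, 2 fell with manganese and the rest did not pass in any comparison.

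Ugt1a1, the enzyme that conjugates bilirubin, was the highest of the locus. It had 75.7, 74.2 and 85.4 TPM in FDMn libraries, 105, 106 and 109 TPM in FDI libraries, 124, 122 and 106 TPM in FD libraries and 123, 119 and 125 TPM in Mock libraries. All FDMn libraries were below all others. Its log2 change was −0.57 ± 0.07 (adjusted p = 0.00031) in FDMn against FD, −0.44 ± 0.07 (adjusted p = 0.00132) in FDMn against FDI and −0.13 ± 0.07 (adjusted p = 0.262) in FDI against FD. Ugt1a2, its neighbour upstream, was low, with 0.225, 0.167 and 0.340 TPM in FDMn libraries, 1.20, 2.66 and 1.94 TPM in FDI libraries, 1.68, 1.34 and 2.05 TPM in FD libraries and 1.82, 1.60 and 1.71 TPM in Mock libraries. It fell in FDMn against FD (−1.11 ± 0.19, adjusted p = 0.00219) and against FDI (−1.21 ± 0.19, adjusted p = 0.00105). Because the locus shares exons, Ugt1a1 and Ugt1a2 are not independent measurements. Ugt1a6a and Ugt1a6b, phenol-conjugating enzyme genes that share most of their sequence, summed to 53.1 to 59.0 TPM in FDMn, 53.2 to 62.7 TPM in FDI, 53.9 to 59.0 TPM in FD and 50.7 to 58.4 TPM in Mock libraries, which overlap.

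The Ugt2 genes, whose products conjugate steroids, bile acids and many drugs, lie on chromosome 5 (86889767 to 87490871) in the order Ugt2b34, Ugt2b1, Ugt2b35, Ugt2b36, Ugt2b5, Ugt2b37, Ugt2a3, Ugt2b38, Ugt2a2 and Ugt2a1. With manganese the consecutive genes Ugt2b35, Ugt2b36 and Ugt2b5 fell, and Ugt2a3 and Ugt2b38, which lie next to each other farther along, rose. Ugt2b34, Ugt2b1 and Ugt2b37 did not pass, and Ugt2a1 and Ugt2a2 were below the filter. The first 100 bases upstream of the RefSeq start site (RefSeq, GRCm38.p6) are shown for 3 genes that fell and 1 that rose, 5′ to 3′ on the gene's strand. Capitals mark AAGGTCA, a half-site bound by several nuclear receptors, which was searched for on both strands after these windows had been read.
Ugt2b5: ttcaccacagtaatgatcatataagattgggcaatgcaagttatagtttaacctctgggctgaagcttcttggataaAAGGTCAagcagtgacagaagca
Ugt2b36: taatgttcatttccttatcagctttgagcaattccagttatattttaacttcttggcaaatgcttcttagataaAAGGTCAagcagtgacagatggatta
Ugt2b35: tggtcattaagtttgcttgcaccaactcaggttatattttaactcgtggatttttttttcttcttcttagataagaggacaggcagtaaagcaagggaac
Ugt2b38: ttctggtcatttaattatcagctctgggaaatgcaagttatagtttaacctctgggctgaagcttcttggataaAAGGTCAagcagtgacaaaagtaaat

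These windows lie at chr5:87140341-87140440 (Ugt2b5, minus strand), chr5:87092556-87092655 (Ugt2b36, minus strand), chr5:87000760-87000859 (Ugt2b35, plus strand) and chr5:87424204-87424303 (Ugt2b38, minus strand). Ugt2b5, which fell, and Ugt2b38, which rose, share an unbroken run of 62 bases here. Ugt2b5 and Ugt2b36, which both fell, share a run of 24 bases. Ugt2b35 does not hold the half-site in this window. The window of Ugt2b37, which is not shown, also holds it, and Ugt2b37 was called in no comparison. That window shares a run of 77 bases with Ugt2b38 and of 68 bases with Ugt2b5. Over all 32851 RefSeq windows of 250 upstream bases, 4.08% held AAGGTCA. Of the 67 windows of the 56 members, 7 did. They belong to Ugt2b5, Ugt2b36, Ugt2b37, Ugt2b38, Sult1e1, Gstk1 and Sult2a8. The Ugt2b windows among them share runs of 22 to 77 bases, so they are not separate observations. A match is a description of the letters and not a binding site.

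Ugt2b36, the highest Ugt gene of all, had 164, 160 and 158 TPM in FDMn libraries, 231, 216 and 231 TPM in FDI libraries, 233, 218 and 262 TPM in FD libraries and 255, 224 and 248 TPM in Mock libraries. The FDMn libraries lay apart and the rest overlapped. Its log2 change was −0.56 ± 0.07 (adjusted p = 0.00034) against FD and −0.49 ± 0.07 (adjusted p = 0.00061) against FDI, and FDI against FD did not pass (−0.07 ± 0.07, adjusted p = 0.59).

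Ugt2b5 had 90.4, 103 and 91.9 TPM in FDMn libraries, 114, 115 and 115 TPM in FDI libraries, 139, 138 and 141 TPM in FD libraries and 116, 107 and 123 TPM in Mock libraries. FD was the highest group, with FDI and Mock overlapping and FDMn lowest. It rose in FD against Mock (log2 change 0.27 ± 0.07, adjusted p = 0.00508), and it fell in FDMn against FD (−0.55 ± 0.07, adjusted p = 0.00021) and in FDI against FD (−0.28 ± 0.07, adjusted p = 0.0127). FDMn was lower than FDI (−0.27 ± 0.07, adjusted p = 0.015), which ended without FDMn replicate 1 (adjusted p = 0.0644), without FDMn replicate 3 (0.0599) and under quantile normalization (0.15). The FDI call ended with FD replicate 3 as the only FD library (log2 change −0.30, adjusted p = 0.114).

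Ugt2b35 shares 4.40% of its stretches and was lowered by both agents. It had 14.4, 16.1 and 14.8 TPM in FDMn libraries, 17.3, 20.6 and 21.5 TPM in FDI libraries, 27.3, 25.0 and 30.7 TPM in FD libraries and 29.8, 24.7 and 31.3 TPM in Mock libraries. FD and Mock overlapped, and FDMn and FDI each lay below them. The log2 change was −0.83 ± 0.11 (adjusted p = 0.00048) in FDMn against FD and −0.46 ± 0.11 (adjusted p = 0.0165) in FDI against FD. The FDI call ended without FDI replicate 1 (log2 change −0.37, adjusted p = 0.0685). FDMn was lower than FDI (−0.37 ± 0.11, adjusted p = 0.0407), a call that ended in 10 of 22 alternatives, among them those without FD replicate 1, FDI replicate 2 or 3, or any FDMn replicate (adjusted p from 0.0513 to 0.135).

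Ugt2b38 had 5.42, 4.46 and 4.60 TPM in FDMn libraries, 1.76, 2.41 and 2.27 TPM in FDI libraries, 3.32, 2.53 and 2.05 TPM in FD libraries and 2.04, 1.59 and 1.86 TPM in Mock libraries. All FDMn libraries were above all others. It rose in FDMn against FD (log2 change 0.69 ± 0.15, adjusted p = 0.0105; 0.62 and 0.0511 without FDMn replicate 1) and was higher in FDMn than in FDI (0.89 ± 0.15, adjusted p = 0.00201). The difference between FDI and FD did not pass (−0.20 ± 0.15, adjusted p = 0.442). Ugt2b38 shares 44.1% of its stretches with Ugt2b5, which was more abundant in every library and moved the other way with manganese. Ugt2a3 had 30.7, 36.2 and 31 TPM in FDMn libraries, 22.7, 24.3 and 26.6 TPM in FDI libraries and 28.5, 26.2 and 24.7 TPM in FD libraries. It was higher in FDMn than in FDI (0.40 ± 0.09, adjusted p = 0.00841). Its calls in FDMn against FD (0.29 ± 0.09, adjusted p = 0.0423) and in FD against Mock (0.24 ± 0.09, adjusted p = 0.0409) ended in 14 and 11 of 22 alternatives. In the first these included each fit without a Mock or FDMn replicate, without FD replicate 2 or 3 or without FDI replicate 2 (adjusted p from 0.0508 to 0.162). In the second they included each fit without a Mock replicate, without FD replicate 1 or 2, FDI replicate 2 or FDMn replicate 3 (adjusted p from 0.0509 to 0.137).

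The Ugt3 genes on chromosome 15 differ from the rest in their sugar: the human UGT3A1 uses UDP-N-acetylglucosamine. Ugt3a1 had 6.26, 8.50 and 6.87 TPM in FDMn libraries, 3.79, 4.14 and 4.56 TPM in FDI libraries, 3.33, 4.30 and 4.64 TPM in FD libraries and 3.93, 4.82 and 3.75 TPM in Mock libraries. The FDMn libraries stood apart, above the others. It rose, with a log2 change of 0.69 ± 0.14 (adjusted p = 0.00714) against FD and 0.66 ± 0.14 (adjusted p = 0.00767) against FDI. With FD replicate 3 as the only FD library the call against FD ended (0.53, adjusted p = 0.15). Ugt3a2, at 38.6 to 41.4 TPM in FDMn and 33.1 to 39.0 TPM in FD libraries, did not pass (0.14 ± 0.09, adjusted p = 0.319).

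**Figure D5:**
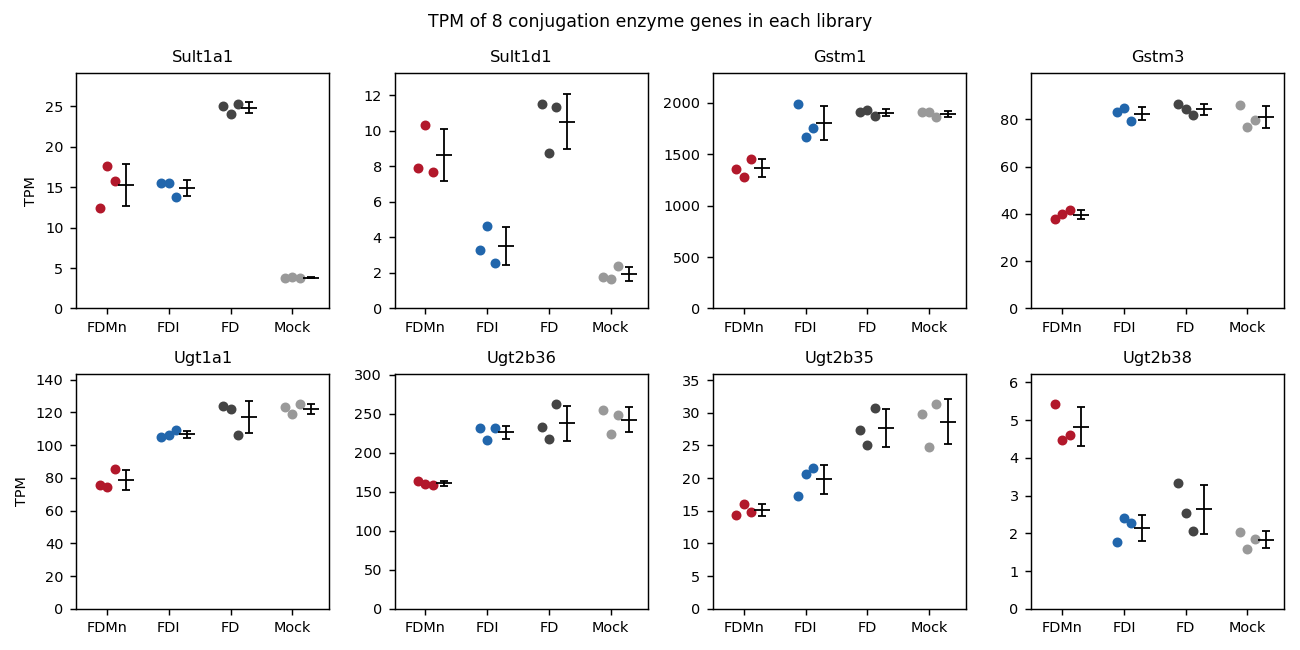
TPM (y axis, from 0) of 8 members in each library, with groups from left to right in the order FDMn, FDI, FD and Mock. Points are libraries and the bar beside them is the mean ± SD (n = 3); Sult1a1 is near 25 TPM in FD and under 4 TPM in Mock libraries, Gstm3 is lowest in FDMn libraries, and Ugt2b38 is highest in FDMn libraries.

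The sulfotransferases were low, and they held both of the largest changes of any member in FD against Mock. Of 21 genes, 7 passed the filter, and 3 of these rose in FD against Mock. Sult1a1, which sulfates phenols and lies on chromosome 7 (126672865 to 126676432), had 25.1, 24.1 and 25.3 TPM in FD libraries and 3.79, 3.83 and 3.75 TPM in Mock libraries. The mean was 6.55-fold higher in FD, a log2 change of 2.43 ± 0.11 (adjusted p = 6.2e-09). With the added agents it had 12.4, 17.6 and 15.8 TPM in FDMn libraries and 15.5, 15.5 and 13.8 TPM in FDI libraries, below FD and above Mock in each case. The log2 change was −0.68 ± 0.11 (adjusted p = 0.00154) in FDMn against FD and −0.70 ± 0.11 (adjusted p = 0.00131) in FDI against FD. FDMn and FDI overlapped, and their difference was 0.02 ± 0.11 (adjusted p = 0.936).

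Sult1d1, which in mice sulfates catecholamines and lies on chromosome 5 (87554645 to 87569027) between Sult1b1 and Sult1e1, shares no stretch with another gene. It had 11.5, 8.72 and 11.3 TPM in FD libraries and 1.77, 1.66 and 2.39 TPM in Mock libraries. The mean was 5.43-fold higher in FD (log2 change 1.97 ± 0.18, adjusted p = 3.8e-06). It had 7.92, 10.3 and 7.68 TPM in FDMn libraries and 3.27, 4.65 and 2.58 TPM in FDI libraries. FDMn overlapped FD, while FDI lay between FD and Mock with no overlap. It fell in FDI against FD (−1.37 ± 0.18, adjusted p = 0.00039) and did not pass in FDMn against FD (−0.26 ± 0.18, adjusted p = 0.371). The direct test found it higher in FDMn than in FDI (1.11 ± 0.18, adjusted p = 0.00135). Both genes rose in FD against Mock; FDMn and FDI libraries overlapped for Sult1a1 and stood apart for Sult1d1.

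Sult1e1, the estrogen sulfotransferase, had 2.06, 2.96 and 2.09 TPM in FDMn libraries, 0.255, 0.592 and 0.897 TPM in FDI libraries, 1.44, 0.368 and 0.741 TPM in FD libraries and 1.31, 0.174 and 0.706 TPM in Mock libraries. Outside FDMn, only FD replicate 1 and Mock replicate 1 reached 1 TPM, so Sult1e1 passed the low-value filter only through its FDMn libraries. Its higher calls in FDMn therefore lend no support beyond these values. Sult1e1 was called higher in FDMn than in FDI (log2 change 1.10 ± 0.28, adjusted p = 0.0176). That call ended without FDI replicate 1 (0.94, adjusted p = 0.072) or FDMn replicate 2 (0.98, adjusted p = 0.071). The call in FDMn against FD (0.90 ± 0.28, adjusted p = 0.049) ended in 14 of 21 alternatives. Among them were those without Mock replicate 3, without FD replicate 2 or 3 and without any FDI or FDMn replicate (adjusted p from 0.0525 to 0.157).

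Sult2a8, a liver enzyme gene that in mice acts on bile acids, had 11.1, 11.5 and 10.3 TPM in FD libraries and 9.11, 8.07 and 7.10 TPM in Mock libraries. In FDMn it had 11.6, 11.7 and 8.38 TPM and overlapped FD. It rose in FD against Mock (log2 change 0.40 ± 0.13, adjusted p = 0.0246), which ended without Mock replicate 2 (adjusted p = 0.0545), Mock replicate 3 (0.0949), FD replicate 1 (0.0596) or FD replicate 2 (0.0683) and with FD replicate 3 as the only FD library (0.248). In FDI it had 8.14, 8.51 and 8.96 TPM, below every FD library, and missed the threshold (−0.33 ± 0.13, adjusted p = 0.11). It was the only Sult2 gene of 9 that passed the filter. Sult5a1, the highest of the Sult3 to Sult6 genes, averaged 1.10 to 2.37 TPM over the groups and was called in no comparison on deposited TPM. Sult1b1, which sulfates thyroid hormones, and Sult1c2 averaged 0.914 to 1.43 TPM and were called in none.

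The genes that supply and complement these enzymes were described as lists, each beside the medians over all genes given above. The counts of every list below are to be read beside the shares of all genes tested. Of these, limma called 11.2% higher and 29.9% lower in FD against Mock and 7.22% and 7.90% in FDMn against FD. The shares were 10.2% and 4.35% in FDI against FD and 5.68% and 11.9% in FDMn against FDI. Each list holds few genes, and no list was tested as a set. In glutathione supply, 5 of 14 tested genes rose and 5 fell in FD against Mock (median log2 change 0.08), and 2 rose and 2 fell in FDMn against FD (0.054). In FDI against FD 2 rose and 4 fell (−0.086), and in FDMn against FDI 1 was higher and 3 lower (−0.046). Gclc, the rate-limiting enzyme of glutathione synthesis, was at 663 ± 9.01 TPM in FDMn, 761 ± 53.2 TPM in FDI, 1136 ± 49.3 TPM in FD and 135 ± 9.76 TPM in Mock libraries (SD, n = 3 each). It rose 8.44-fold in FD against Mock (log2 change 3.07 ± 0.06, adjusted p = 4.5e-12), and it fell in FDMn against FD (−0.77 ± 0.06, adjusted p = 1.5e-05) and in FDI against FD (−0.58 ± 0.06, adjusted p = 0.0001). All FDMn and FDI libraries stayed above Mock. Chac1, which degrades glutathione, averaged 26.7 ± 1.53 TPM in FDMn, 73.6 ± 6.91 TPM in FDI and 16.0 ± 1.24 TPM in FD libraries. It rose in FDMn against FD (0.70 ± 0.10, adjusted p = 0.0008) and in FDI against FD (2.13 ± 0.10, adjusted p = 3.7e-07), and was lower in FDMn than in FDI (−1.43 ± 0.10, adjusted p = 3.8e-06). Cth, which makes cysteine, also rose in FDMn against FD (0.84 ± 0.07, adjusted p = 2.2e-05) and in FDI against FD (1.17 ± 0.07, adjusted p = 1.4e-06). Mat1a, which makes S-adenosylmethionine, fell in FDMn against FD (−1.14 ± 0.09, adjusted p = 1.5e-05) and in FDI against FD (−0.84 ± 0.09, adjusted p = 0.00011), after a 9.66-fold rise in FD against Mock (3.24 ± 0.09, adjusted p = 1.1e-10).

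In the UDP-glucuronic acid list 3 of 8 genes rose and 3 fell in FD against Mock (median 0.0074). In FDMn against FD limma called 0 higher, also 0 at an unadjusted p under 0.05, and 3 lower (−0.071). In FDI against FD it called 0 higher, again 0 unadjusted, and 1 lower (−0.092), and in FDMn against FDI 1 was higher and 0 lower, with 1 lower unadjusted (−0.019). Ugp2, which makes UDP-glucose, rose in FD against Mock (1.26 ± 0.08, adjusted p = 1.6e-07), and so did Slc35d1, which carries UDP-glucuronic acid into the endoplasmic reticulum (0.83 ± 0.08, adjusted p = 6.7e-06). Slc35d1 fell in FDMn against FD (−0.46 ± 0.08, adjusted p = 0.00257). Ugdh, which makes UDP-glucuronic acid, was at 230 ± 4.43 TPM in FDMn, 172 ± 8.46 TPM in FDI and 302 ± 40.5 TPM in FD libraries, and fell in FDMn against FD (−0.38 ± 0.10, adjusted p = 0.0192) and in FDI against FD (−0.80 ± 0.10, adjusted p = 0.00018). It was higher in FDMn than in FDI (0.42 ± 0.10, adjusted p = 0.00999).

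In the PAPS and sulfate list, of 9 genes tested, limma called 0 higher and 1 lower in each of FD against Mock (median −0.16), FDMn against FD (−0.093) and FDI against FD (−0.025). At an unadjusted p under 0.05 the counts higher were 0, 1 and 0. In FDMn against FDI it called 0 in either direction, and 0 unadjusted (0.005). The gene that fell in FD against Mock was the sulfate transporter Slc26a1 (−1.54 ± 0.08, adjusted p = 1.8e-08), at 10.0 ± 0.526 TPM in FD and 31 ± 0.392 TPM in Mock libraries.

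Of 11 other conjugating enzymes tested, 1 rose and 5 fell in FDMn against FD (median −0.22), and 3 rose and 2 fell in FD against Mock (0.031). In FDMn against FDI limma called 0 higher, also 0 unadjusted, and 6 lower (−0.31), and in FDI against FD 0 higher, with 2 unadjusted, and 1 lower (−0.0052). Of 10 conjugate exporters, 2 were higher and 2 lower in FDMn against FDI (0.035). Limma called 0 higher and 2 lower in FDMn against FD (−0.06), 0 in either direction in FDI against FD (0.021) and 0 higher and 4 lower in FD against Mock (−0.2); unadjusted, 2, 1 and 0 exporters were higher in these comparisons and 0 lower in FDI against FD. Abcg2 was lower in FDMn than in FDI (−0.72 ± 0.07, adjusted p = 4.1e-05) and than in FD (−0.53 ± 0.07, adjusted p = 0.00046), and it fell in FD against Mock (−0.69 ± 0.07, adjusted p = 9.3e-06). Abcc2, which exports glutathione and glucuronide conjugates into bile, was higher in FDMn than in FDI (0.51 ± 0.10, adjusted p = 0.0036).

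Of 14 regulators tested, 6 rose and 4 fell in FD against Mock (median 0.26). Limma called 0 higher and 3 lower in FDMn against FD (−0.1), 0 higher and 6 lower in FDI against FD (−0.24) and 4 higher and 0 lower in FDMn against FDI (0.1). Unadjusted, those counts of 0 were 1, 0 and 0. Nr1i2, which encodes PXR, was at 18.3 ± 0.928 TPM in FDMn and 11.5 ± 0.840 TPM in FDI libraries (0.63 ± 0.11, adjusted p = 0.00201) and rose in FD against Mock (0.96 ± 0.11, adjusted p = 2.3e-05). Of 10 tested target genes of NRF2, the aryl hydrocarbon receptor, CAR and PXR, 2 rose and 3 fell in FDMn against FD (−0.18), 2 were higher and 3 lower in FDMn against FDI (−0.093), and 4 rose and 1 fell in FD against Mock (0.11). In FDI against FD limma called 0 higher, with 2 unadjusted, and 1 lower (−0.12). Ephx1, a microsomal epoxide hydrolase, fell in FDMn against FD (−0.54 ± 0.05, adjusted p = 6.2e-05) and was lower in FDMn than in FDI (−0.41 ± 0.05, adjusted p = 0.00036). The NRF2 target Txnrd1 rose in FDMn against FD (0.38 ± 0.05, adjusted p = 0.00047) and was higher in FDMn than in FDI (0.23 ± 0.05, adjusted p = 0.00891). Txnrd1 fell in FD against Mock (−0.45 ± 0.05, adjusted p = 2.3e-05). It averaged 195 TPM in FDMn, 149 TPM in FD and 205 TPM in Mock libraries. Cyp2b10, on the same list of target genes, rose in FD against Mock (3.33 ± 0.13, adjusted p = 1.9e-09). Nr1i3, which encodes CAR, stayed below the filter and averaged 0.311 TPM in FD and 0.424 TPM in Mock libraries. The part of any regulator in the changes of these target genes was not tested.

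RefSeq promoter windows, searched over 250 upstream bases on both strands, were available for 56 of the 64 members. The antioxidant response element core TGACNNNGC was in windows of 3 members (Gsta3, Gstm5 and Gstm7) and in 10.2% of all windows. The cAMP response element TGACGTCA was in none of them and in 1.55% of all windows, and TGACG, its first 5 bases, was in windows of 5 members and in 17.8% of all windows. The glucocorticoid response element core ACANNNTGT was in windows of 4 members (Sult2a8, Ugt1a7c, Ugt2a2 and Sult6b2) and in 5.84% of all windows. The AP-1 site TGAGTCA, added after windows had been read, was in 7 of the 67 windows of members and in 4.46% of all windows. The members were Gstp1, Gstp2, Gstm5, Sult1c1, Sult2b1, Ugt2a2 and Ugt2b37. Gstp1 and Gstp2 are near-identical neighbours, so their windows may not be separate observations. A motif picked from these windows cannot be tested on them. The windows of Sult1a1, Sult1d1 and Gstm1 to Gstm4 held none of these letters. That says only that the letters are not in these windows.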

How the data were processed

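The authors deposited a single table of gene-level TPM for 12 libraries of primary mouse hepatocytes (3 each of FDMn, FDI, FD and Mock). The submitters' processing notes name kallisto 0.44.0, the build GRCm38.p6 and DESeq2, the last with no stated role. Which annotation release, filters and strand setting they used, the sources used here do not say, so reads of overlapping or antisense genes cannot be told apart. TPM keeps no read depth, so no counting interval is given. Groups come from the sample titles.

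From these values log2(TPM + 1) was computed for the 11544 genes that reached 1 TPM in 3 or more libraries. A model with 1 term per group over all 12 libraries was fitted with limma 3.58.1 (R 4.3.3) with a variance trend, and p-values were two-sided with Benjamini-Hochberg adjustment and a threshold of 0.05. The fit was tested on simulated data. In each comparison 22 alternatives were tried, 12 of them leaving out 1 library. Same-numbered replicates did not deviate together: correlations over 18 pairs ran from −0.0976 to 0.0684, and none was over 0.1.

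The symbol rule, lists, markers and motifs were chosen with earlier results of these data known; the rule takes members by symbol alone. The AP-1 and AAGGTCA motifs were added after promoter windows had been read. All 64 members matched GENCODE M21 by symbol, and 56 had RefSeq promoter windows. Values are given for the highest member of each subfamily and for the 10 called members with the largest changes per comparison; in each list up to 4 genes with the smallest adjusted p could be named. Gm3776, Gsta2, Gsta3, Gsta4, Gstk1, Gstz1, Gsto2, Ugt1a6a, Ugt1a6b, Sult1b1, Sult1c2 and Nr1i3 fall outside that rule and were named after their values were seen. The values of 1 gene of the lists are not reported here.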

Additional observations from a re-analysis of the deposited data

How the results depend on the processing

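Of the 50 member calls over the 4 comparisons, 32 held under every alternative tried and 18 were ended by at least 1. The fit with FD replicate 3 as the only FD library ended calls most often. With 1 library in a group a fit is less able to call a change, so an ended call there need not mean a smaller one. Log2 changes moved both ways: Gstp3 in FDMn against FD went from 0.34 to 0.47, and Gstm7 in FD against Mock from 0.67 to 0.35. No called member changed direction under any alternative. In FD against Mock, median-of-ratios scaling gave 17 members higher and 0 lower, and the fit with no filter on low values gave 2 lower; leaving out 1 replicate at a time gave 0 to 3 lower. In FDMn against FD, the 5 members higher became 2 with no filter, 2 with a mean TPM of at least 5, 3 with only the compared groups, 3 with no variance trend, 1 with FD replicate 3 alone, and 2 to 5 with 1 replicate left out. The replicate block also gave 3, and replicate numbers did not pair these libraries. With a mean TPM of at least 5, Sult1e1, Ugt2b38 and Ugt3a1 were not tested, so their absence there is not an ended call. In FDI against FD the 0 members higher became 0 to 2 with 1 replicate left out. Values that missed the threshold and turned sign were Gstp1 in FD against Mock (0.10 with median-of-ratios scaling, 0.02 with FD replicate 3 alone, −0.11 to 0.01 with 1 replicate left out), Sult1a1 in FDMn against FDI (−0.09 to 0.15 with 1 replicate left out, turned without FDI replicate 3, FDMn replicate 2 or FDMn replicate 3), and, in FDI against FD, Gstm3, Ugt1a1 and Ugt2b38 with FD replicate 3 alone (0.01, 0.01 and 0.04) and Ugt2b36 without FD replicate 3 (−0.13 to 0.01 with 1 replicate left out). The causes were not tested. Depth is unknown, so the precision of low members such as Ugt1a2 and Sult1e1 cannot be given.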
